A study of Homo sapiens with 6 samples.

Results

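NF-κB is a family of dimeric transcription factors held in check by inhibitor proteins, and the 10 genes described here are its 5 subunits (*NFKB1*, *NFKB2*, *REL*, *RELA* and *RELB*), 3 of its IκB inhibitors (*NFKBIA*, *NFKBIB* and *NFKBIE*) and 2 ubiquitin enzymes that regulate it (*TNFAIP3* and *BIRC3*). They were chosen by name, with earlier results of these data known. They are 10 of the 61228 genes in the deposited tables, and all 10 were among the 15373 genes with enough counts to be tested. RNA-seq was performed on HBECs (labelled HBE cells, genotype WT), a human bronchial epithelial line that has been immortalized. The cells had been exposed for 24 h to cockroach extract (CRE), a source of cockroach allergen. In 3 libraries the cells received CRE alone, and in the other 3 they received CRE with VAF347, a small-molecule agonist of the aryl hydrocarbon receptor (AhR) added before the extract. CRE was present in both groups. Libraries of untreated cells or of cells given VAF347 alone were not analysed here, so each comparison is between CRE + VAF347 and CRE, and none of it measures the effect of CRE. The cells are a single line, and the labels do not say whether the 3 libraries of a group came from separate cultures. The p-values therefore weigh each difference only against the spread between these libraries, which may be technical.

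In resting cells, NF-κB dimers are retained in the cytoplasm by IκB proteins. Signals from cytokine and pattern recognition receptors activate the IKK complex, which marks IκB proteins for degradation and lets dimers that contain *RELA* or *REL* products enter the nucleus, while a slower arm processes the *NFKB2* product and releases it with the *RELB* product. *NFKBIA*, *NFKBIE*, *TNFAIP3*, *BIRC3*, *NFKB2* and *RELB* are themselves textbook targets of NF-κB, which makes their transcripts part of its feedback. In airway epithelium the pathway is known for driving cytokine, chemokine and adhesion molecule genes after contact with allergens and microbes.

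The libraries held 8873160 to 10750283 estimated counts. CRE replicate 3 stood apart from the other CRE libraries: the mean chi-square per gene between libraries was 9.33 and 9.04 for the pairs that contain it, 2.47 for CRE replicates 1 and 2, and 1.78 to 2.57 within the CRE + VAF347 group. Values without this library are therefore given below for the members and pathway genes that were called. The AhR targets *CYP1A1* and *CYP1B1* rose by 6.20 and 3.14 on the log2 scale in the CRE + VAF347 libraries, and all 4 AhR response genes examined were higher (edgeR quasi-likelihood test, adjusted p of 3.22e-05 or less). In TPM, which scales counts by transcript length and library size, the genes *KRT8*, *KRT18*, *KRT19*, *EPCAM* and *CDH1*, which mark epithelium, were at 286.2 to 1253 TPM on average in the CRE libraries, whereas the basal cell markers *KRT14* and *TP63* were at 0.0904 and 0.0137 TPM. Of the other markers that basal cells express, *KRT5* was at 9.87, *KRT17* at 165.6 and *ITGB4* at 75.6 TPM.

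A κB site is the sequence that an NF-κB dimer contacts. For that reason the promoter bases of the 3 members called lower by edgeR with all 6 libraries are shown. They were taken from RefSeq (GRCh38.p14) and are printed 5′ to 3′ on the strand of the gene, up to the base before the gene start in GENCODE v44. Capitals mark matches to the κB consensus on either strand. *NFKBIA* is on the minus strand (chr14:35404750-35404999), and *TNFAIP3* (chr6:137867009-137867213) and *BIRC3* (chr11:102317234-102317483) are on the plus strand.
NFKBIA: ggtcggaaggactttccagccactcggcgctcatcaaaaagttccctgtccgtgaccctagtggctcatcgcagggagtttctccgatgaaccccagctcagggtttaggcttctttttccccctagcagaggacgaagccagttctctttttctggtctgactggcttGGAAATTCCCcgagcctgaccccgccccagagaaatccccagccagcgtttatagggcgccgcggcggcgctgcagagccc
TNFAIP3: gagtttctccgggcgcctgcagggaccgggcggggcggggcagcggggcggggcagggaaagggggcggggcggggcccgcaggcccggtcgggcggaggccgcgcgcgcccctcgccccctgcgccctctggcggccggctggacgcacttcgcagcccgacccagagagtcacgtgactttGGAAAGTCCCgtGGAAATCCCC
BIRC3: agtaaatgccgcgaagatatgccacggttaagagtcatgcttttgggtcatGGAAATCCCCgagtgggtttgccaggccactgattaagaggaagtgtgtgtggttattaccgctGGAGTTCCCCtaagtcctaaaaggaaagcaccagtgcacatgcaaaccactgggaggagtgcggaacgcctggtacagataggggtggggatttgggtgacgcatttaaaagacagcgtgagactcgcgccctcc
Counted back from the RefSeq start, the match in the *NFKBIA* window ran from -81 to -72. The *TNFAIP3* window held a pair of matches, at -67 to -58 and -55 to -46, its RefSeq start lying downstream of the GENCODE start, and the *BIRC3* window held a pair at -199 to -190 and -135 to -126. Of the 10 genes, 8 had at least 1 RefSeq window (13 windows in all), and 7 of those 8 held a κB match in the 250 bases before the start, *RELA* being the exception. A match was in 8 of the 13 windows, and in 9.96% of all 35116 windows. By gene, 11.8% of 27305 gene symbols had a match in at least 1 window. The AhR core sequence GCGTG, sought on both strands in the same bases, was found for 6 of the 8 genes and for 36.2% of all symbols. It was in 7 of the 13 windows and in 32.2% of all windows. Among the 3 genes printed above it was found in *BIRC3*, at -20 to -16, and its letters were not in the windows of *NFKBIA* and *TNFAIP3*. In these windows the κB matches and the AhR core matches shared no base. Several of the genes are textbook NF-κB targets, so a high share of κB matches may follow from the choice of genes. *NFKB1*, *NFKB2*, *REL* and *NFKBIB*, which were not called, held κB matches too. These matches describe the sequence, and no binding was measured in these libraries.

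*NFKBIA* was the most abundant of the 10 transcripts and *REL* the least abundant in both groups. Levels of different genes are compared here in TPM. In the CRE libraries *NFKBIA*, which encodes the main feedback inhibitor IκBα, averaged 143.8 ± 10.4 TPM (SD, n = 3), and *RELA*, which encodes a strongly transactivating subunit, averaged 55.1 ± 7.54 TPM. *NFKB2* followed at 32.3 ± 2.32 TPM, *NFKBIE* at 26.5 ± 2.59 TPM, and *NFKB1* at 25.2 ± 1.80 TPM. The ranges of *NFKBIE* and *NFKB1* overlapped, so their order was not resolved by these libraries. *NFKBIB* averaged 18.5 ± 2.68 TPM and *BIRC3* 14.7 ± 1.75 TPM, and their ranges overlapped as well. *TNFAIP3* was at 11.1 ± 1.70 TPM, *RELB* at 8.19 ± 1.52 TPM and *REL* at 4.63 ± 0.557 TPM, with no overlap between neighbours. In the CRE + VAF347 libraries *NFKB1* (26.1 ± 0.777 TPM) stood above *NFKBIE* (22.2 ± 1.49 TPM), and *RELB* (8.66 ± 0.314 TPM) and *TNFAIP3* (8.64 ± 0.243 TPM) could not be ordered. *NFKBIE* overlapped *NFKBIB* (19.1 ± 2.36 TPM) there, and the other neighbours did not overlap.

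**Figure D1:**
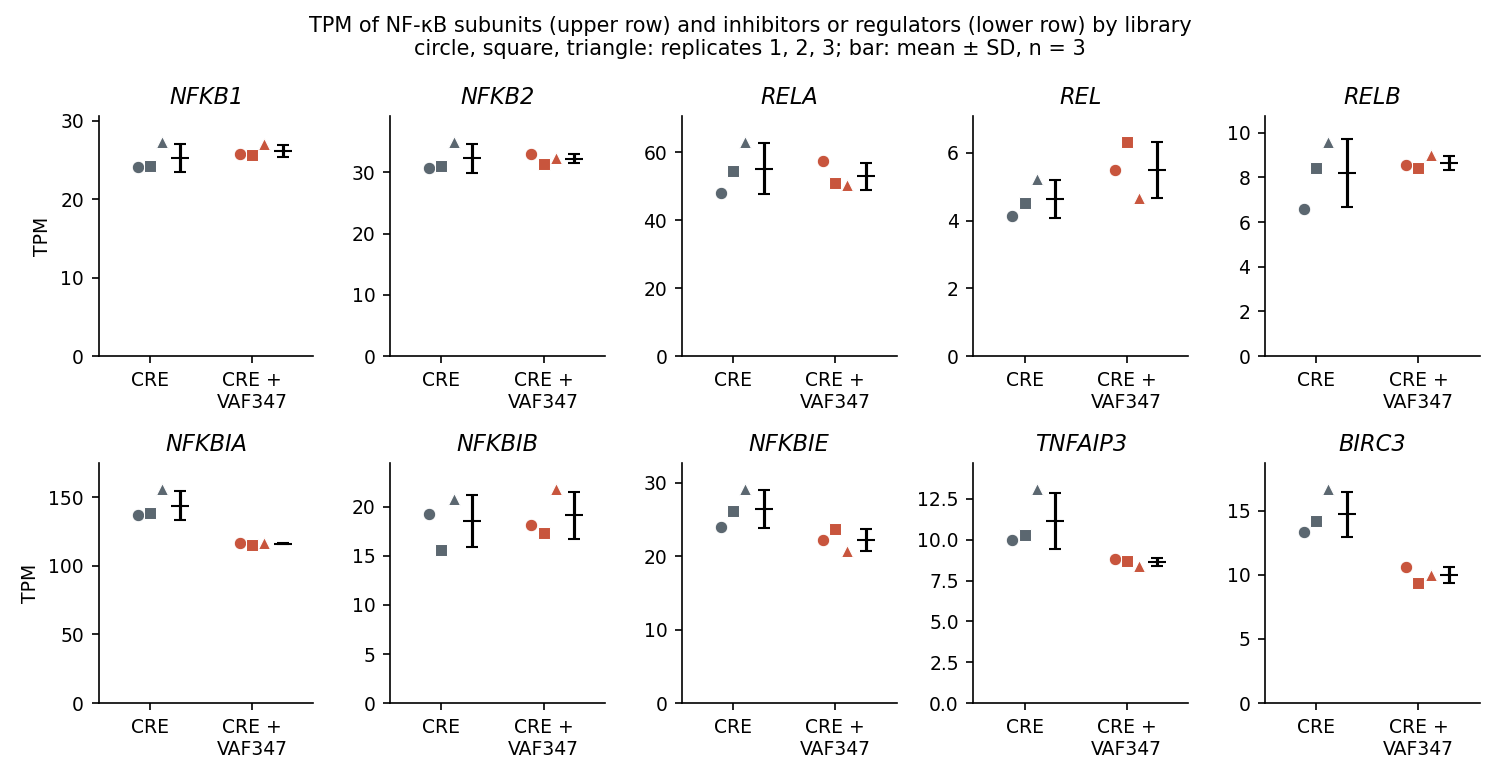
TPM of the 10 genes in each library (y axes from 0, a separate scale for each gene), with CRE in grey and CRE + VAF347 in red. Circles, squares and triangles are replicates 1, 2 and 3, and bars are the mean and SD of 3 libraries. In *NFKBIA*, *NFKBIE*, *TNFAIP3* and *BIRC3* every CRE + VAF347 library lies below every CRE library.

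The make-up of the subunit transcripts was similar in the 6 libraries. *RELA* supplied 40.9% to 45.0% of the summed TPM of the 5 subunits, *NFKB2* 25.0% to 27.1%, *NFKB1* 19.5% to 21.9%, *RELB* 5.78% to 7.30% and *REL* 3.64% to 5.16%. The summed TPM of the 5 inhibitors and regulators was 1.79, 1.67 and 1.68 times that of the subunits in the CRE libraries and 1.35, 1.42 and 1.44 times in the CRE + VAF347 libraries. The *NFKBIA* transcript alone was at 2.86, 2.55 and 2.47 times the level of *RELA* with CRE and at 2.02, 2.27 and 2.31 times with CRE + VAF347. Both ratios were lower in every CRE + VAF347 library than in every CRE library, and they contain the genes whose fall is described next.

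Under VAF347 the transcripts of *NFKBIA*, *TNFAIP3* and *BIRC3* fell by 18.1%, 20.3% and 23.5%, while none of the 5 subunits passed the test. Changes were fitted on counts with edgeR's quasi-likelihood test and adjusted by the Benjamini-Hochberg method over all 15373 genes. At an adjusted p under 0.05 and any fold change, 3 of the 10 genes were lower, against a background of 4.07% of all genes tested. Because the 10 genes were chosen with earlier results known, the background is given for description and is no independent test. None was higher (0 of 10, background 1.35%), and at an unadjusted p under 0.05 the counts were 4 lower and 1 higher, where 11.9% and 8.87% of all genes were. With the added demand of an absolute log2 fold change over 0.5, which 2.21% of all genes met, 0 of the 10 were called by edgeR. DESeq2 called 1 of the 10 at any fold, *NFKBIA*, and limma on TPM called 0. Without CRE replicate 3, edgeR called 2, *NFKBIA* and *BIRC3*. In 4 genes every CRE + VAF347 library was below every CRE library, where 14.8% of all genes had that order, and in 0 every one was above, where 12.5% did. The median log2 fold change of the 10 genes was -0.05, beside 0.0096 for all genes tested. Whether a lower value means fewer cells that express a gene or less of its RNA per cell cannot be told apart in bulk libraries.

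**Figure D2:**
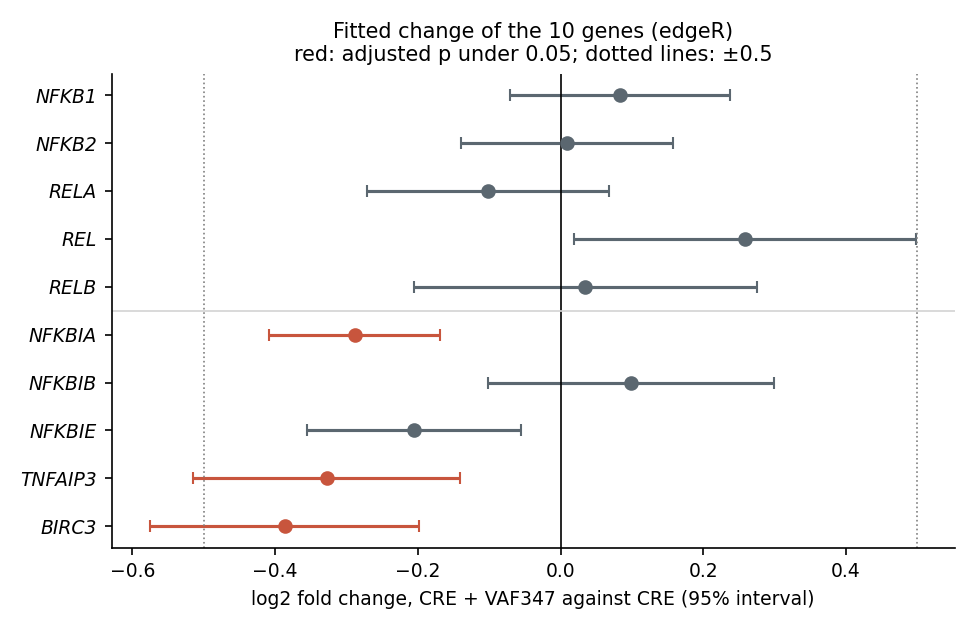
Fitted log2 fold change of each gene, CRE + VAF347 against CRE (edgeR), with its 95% interval. Red points have an adjusted p under 0.05, dotted lines mark a log2 fold change of 0.5 in either direction, and the 3 red intervals lie below 0.

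Among the subunits, *RELA* encodes the transactivating p65 protein. Its scaled count was 70.9, 81.9 and 83.1 CPM (counts scaled to the size of each library) with CRE and 78.3, 71.6 and 70.2 CPM with CRE + VAF347, so the groups overlapped. The log2 fold change was -0.10, with a 95% interval of -0.27 to 0.07 (edgeR adjusted p = 0.497). *NFKB1*, which encodes the precursor and partner subunit of the canonical arm, was at 54.0, 57.1 and 60.7 CPM with CRE and at 58.9, 59.4 and 63.8 CPM with CRE + VAF347. The groups overlapped, and its log2 fold change of 0.08 had an interval of -0.07 to 0.24. *NFKB2*, the precursor of the slower arm, had the smallest fitted difference of the 10 genes. It was at 54.3, 57.4 and 51.2 CPM with CRE and at 54.6, 54.9 and 54.4 CPM with CRE + VAF347. The fitted log2 fold change of this gene was 0.0091, with an interval of -0.14 to 0.16. *RELB*, which encodes the partner of the processed *NFKB2* product, was at 13.5, 16.6 and 16.5 CPM with CRE and at 16.0, 16.1 and 15.8 CPM with CRE + VAF347. The lowest value was that of CRE replicate 1, the remaining 5 libraries lay close together, and the log2 fold change of 0.03 had an interval of -0.21 to 0.28. The intervals of these 4 genes all lie within a log2 fold change of 0.5 in either direction.

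*REL*, which encodes c-Rel, was the subunit with the largest fitted difference. It was at 20.8, 21.5 and 23.1 CPM with CRE and at 26.7, 29.4 and 22.3 CPM with CRE + VAF347. Replicates 1 and 2 of CRE + VAF347 were above all CRE libraries, and replicate 3 was not. Its fitted log2 fold change of 0.26 had an interval of 0.02 to 0.50 and did not pass the adjustment (edgeR adjusted p = 0.204). The value was 0.16 without CRE + VAF347 replicate 2 and 0.36 without replicate 3. An offset for transcript GC content moved it to 0.15. *REL* overlaps ENSG00000267520 on the same strand (3.37 TPM on average), so reads of the shared bases may be split between these annotations.

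*NFKBIA* had the smallest p of the 10 genes and ranked 332 of 15373. It was at 137.3, 133.3 and 133.7 CPM with CRE and at 110.7, 111.3 and 109.0 CPM with CRE + VAF347. The groups did not overlap, and the spread within each was small: 134.8 ± 2.17 CPM against 110.3 ± 1.18 CPM (SD, n = 3). The log2 fold change was -0.29 ± 0.05 (SE), with a 95% interval of -0.41 to -0.17 (edgeR adjusted p = 0.0111). In TPM the gene was at 137.3, 138.3 and 155.8 with CRE and at 116.4, 115.4 and 116.4 with CRE + VAF347, again without overlap. *NFKBIA* remained called by DESeq2 (adjusted p = 0.0137) and without CRE replicate 3 (log2 fold change -0.29, edgeR adjusted p = 0.00170). The call was lost without replicate 1, 2 or 3 of CRE + VAF347 (edgeR adjusted p = 0.0543, 0.0604 and 0.0640), where the log2 fold change was -0.30, -0.30 and -0.29. It was also lost with an effective length offset (edgeR adjusted p = 0.0760) and in limma on log2(TPM + 1), with an adjusted p of 0.211.

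The other IκB genes differed from *NFKBIA* in their calls. *NFKBIE*, which encodes IκBε, was at 42.2, 45.3 and 44.02 CPM with CRE and at 38.5, 37.7 and 37.9 CPM with CRE + VAF347. All CRE + VAF347 libraries were below all CRE libraries. The fitted log2 fold change was -0.21 ± 0.07 (SE), with an interval of -0.35 to -0.06, and it did not pass the adjustment (edgeR adjusted p = 0.113). *NFKBIB*, which encodes IκBβ, was at 33.0, 27.3 and 30.4 CPM with CRE and at 31.4, 30.9 and 34.7 CPM with CRE + VAF347. The groups overlapped, and the log2 fold change of 0.10 had an interval of -0.10 to 0.30. *NFKBIB* overlaps *SIRT2* on the opposite strand (18.6 TPM), and whether the counting used strand is not given in the sources used here. A test of the difference between the changes of *NFKBIA* and *NFKBIB* was not run.

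*BIRC3*, which encodes the ubiquitin ligase cIAP2 that acts downstream of TNF receptors, showed the largest fitted change. It was at 29.0, 26.5 and 28.6 CPM with CRE and at 22.7, 20.3 and 21.4 CPM with CRE + VAF347. The groups did not overlap. In the fit *BIRC3* had a log2 fold change of -0.39 ± 0.09 (SE), with an interval of -0.58 to -0.20 (edgeR adjusted p = 0.0257). In TPM the difference was wider, at 13.3, 14.2 and 16.7 with CRE and 10.6, 9.36 and 9.98 with CRE + VAF347. The effective transcript length implied by counts and TPM was 0.13 higher on the log2 scale with CRE + VAF347, whereas in the other 9 genes this difference was -0.09 to 0.02. With that length as an offset the log2 fold change of *BIRC3* was -0.52 (edgeR adjusted p = 0.0360), and with an offset for GC content it was also -0.52 (edgeR adjusted p = 0.00470). *BIRC3* has the lowest transcript GC content of the 10 genes, 36.9%, and over 11085 genes the log2 fold change and GC content had a Spearman rho of -0.35 (across genes, which are not independent replicates). Without CRE replicate 3 the log2 fold change was -0.37 (edgeR adjusted p = 0.0211). The call was lost without CRE replicate 1 (edgeR adjusted p = 0.0708), without replicate 1, 2 or 3 of CRE + VAF347 (0.0527, 0.117 and 0.0994), in DESeq2 (0.124) and in limma on log2(TPM + 1) (0.164).

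*TNFAIP3*, which encodes a ubiquitin-editing enzyme that shuts off IKK activation, was at 30.9, 31.0 and 34.5 CPM with CRE and at 27.2, 25.6 and 24.1 CPM with CRE + VAF347. The groups did not overlap, and the highest value was that of CRE replicate 3. The log2 fold change was -0.33 ± 0.09 (SE), with an interval of -0.52 to -0.14 (edgeR adjusted p = 0.0487), just inside the threshold. Without CRE replicate 3 it was -0.27 (edgeR adjusted p = 0.0643), and leaving out any of the 6 libraries ended the call, with adjusted p up to 0.184. DESeq2 gave an adjusted p of 0.202 for *TNFAIP3*. The gene overlaps *WAKMAR2* on the opposite strand, which was at 1.15 TPM.

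**Figure D3:**
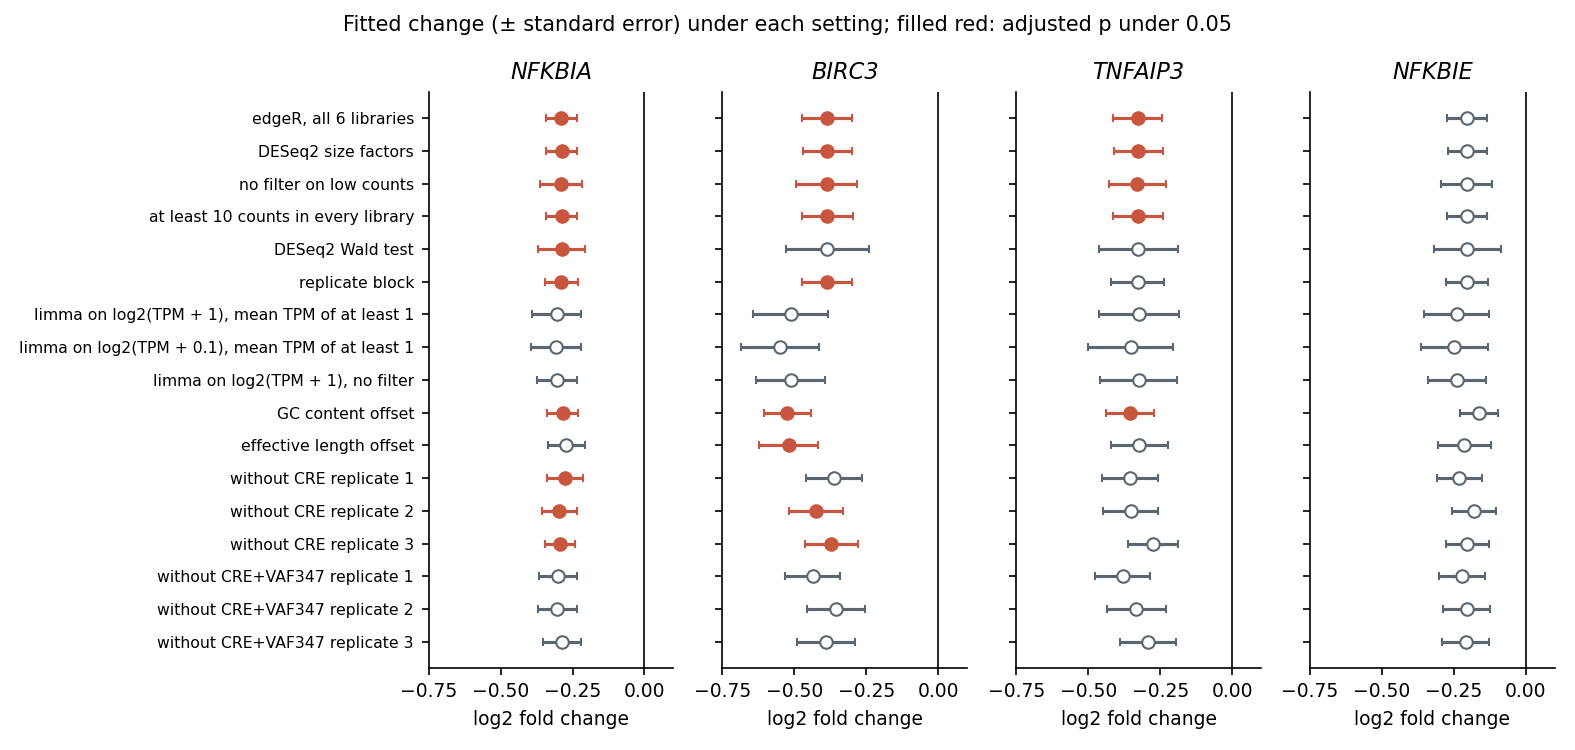
Fitted log2 fold change (± SE) of *NFKBIA*, *BIRC3*, *TNFAIP3* and *NFKBIE* for the 6 libraries together and under 16 other settings. Filled red points have an adjusted p under 0.05, and every point of the 4 genes lies below 0.

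The direction of *NFKBIA*, *BIRC3*, *TNFAIP3* and *NFKBIE* was the same in all 16 other settings shown in the plot of fitted changes by setting. Their log2 fold changes ranged from -0.31 to -0.27, from -0.55 to -0.36, from -0.38 to -0.27 and from -0.25 to -0.16. *NFKBIE* was not called in any of the settings.

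Markers of other cell types were examined beside these falls. The summed TPM of the 10 epithelial markers was 3522 to 4398 with CRE and 3535 to 3613 with CRE + VAF347. Of the 8 that could be tested, *KRT17*, *KRT19* and *ITGB4* fell, with log2 fold changes of -0.27, -0.38 and -0.36 (DESeq2 called the same 3 and limma on TPM 0, and *KRT5* was added without CRE replicate 3). At an unadjusted p under 0.05 (edgeR), 5 of the 8 were lower and 0 higher. Over all genes tested, edgeR called 4.07% lower, and 11.9% were lower at the unadjusted threshold. Both endothelial markers that could be tested fell as well, *CDH5* and *VWF*, with log2 fold changes of -0.84 and -1.45 and a summed TPM of the 4 listed markers of 7.55 to 8.31 against 4.31 to 5.06, while *PECAM1* averaged 0.0292 TPM with CRE and was listed at 0 with CRE + VAF347. Of this pair, DESeq2 called *CDH5* alone and limma on TPM neither, and edgeR called both without CRE replicate 3. The 6 immune cell markers summed to 24.7 to 28.5 TPM against 17.4 to 23.2 TPM, mostly from *CD68*, with *PTPRC* at 0.110 and 0.0352 TPM, and neither of the 2 that could be tested was called by edgeR (1 at an unadjusted p under 0.05, DESeq2 0). The 7 fibroblast markers summed to 19.97 to 22.04 TPM against 17.1 to 19.4 TPM, with *DCN* and *LUM* at 0, and 0 of 3 tested were called by edgeR (0 at an unadjusted p under 0.05, DESeq2 0). The part of these markers in the falls of *NFKBIA*, *TNFAIP3* and *BIRC3* was not tested.

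Other genes of the pathway were taken from lists that share some members and were chosen with earlier results of these data known. For comparison, edgeR called 4.07% of all genes tested lower and 1.35% higher. At an unadjusted p under 0.05, 11.9% of all genes were lower and 8.87% higher. Upstream, IL-1, TNF and Toll-like receptors and their relatives gave 0 calls among 10 tested by edgeR (1 lower and 2 higher at an unadjusted p under 0.05, DESeq2 0), and *CD40* was called higher without CRE replicate 3. The adaptors that carry these signals gave 0 calls among 13 (2 lower and 1 higher at an unadjusted p under 0.05, DESeq2 0), and *TRAF5* was called lower without CRE replicate 3. Of 8 ligands tested, *IL18*, an epithelial cytokine of the IL-1 family, rose from 36.4, 34.3 and 31.5 CPM to 48.3, 43.2 and 43.8 CPM, a log2 fold change of 0.40 ± 0.08 (SE, edgeR adjusted p = 0.0162). At an unadjusted p under 0.05, 2 ligands were lower and 2 higher. *TNFSF15*, which encodes a TNF family ligand, had a log2 fold change of -0.39 (edgeR adjusted p = 0.0504), and DESeq2 and edgeR without CRE replicate 3 each called it lower beside *IL18*. *CD40*, *TRAF5* and *TNFSF15* are named here after their values were seen.

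Of 11 IKK and upstream kinase genes, *IKBKE* fell and the other 10 did not pass the test. Of all genes tested, 4.07% fell and 1.35% rose by the same test. At an unadjusted p under 0.05 (edgeR), 2 of the 11 were lower and 3 higher, beside 11.9% and 8.87% of all genes. *IKBKE* encodes the IKK-related kinase IKKε, which also acts in interferon induction. It was at 46.2, 54.1 and 54.1 CPM with CRE and at 34.0, 36.7 and 31.4 CPM with CRE + VAF347, without overlap. In the fit the log2 fold change was -0.60 ± 0.09 (SE, edgeR adjusted p = 0.00305), and it was -0.56 without CRE replicate 3. *IKBKE* kept an adjusted p under 0.05 when any single library was left out (highest 0.0255).

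Of the 5 atypical IκB genes, *NFKBIZ*, which encodes a nuclear IκB protein that co-activates a subset of NF-κB targets, was the single gene called. It was at 28.6, 27.5 and 30.0 CPM with CRE and at 23.0, 22.1 and 21.8 CPM with CRE + VAF347, which gave a log2 fold change of -0.37 ± 0.08 (SE, edgeR adjusted p = 0.0261). The call was lost in DESeq2 (adjusted p = 0.145), and the value without CRE replicate 3 was -0.33 (edgeR adjusted p = 0.0287). Of 13 ubiquitin-editing regulators tested, *ZC3H12A*, which encodes an RNase that degrades inflammatory mRNAs, was at 52.2, 54.6 and 56.7 CPM with CRE and at 43.2, 44.1 and 41.5 CPM with CRE + VAF347. Its groups did not overlap, and the log2 fold change was -0.35 ± 0.07 (SE, edgeR adjusted p = 0.0138). Without CRE replicate 3 it was -0.32, and that of *IL18* was 0.35. *IL18*, *NFKBIZ* and *ZC3H12A* lost their calls without replicate 1, 2 or 3 of CRE + VAF347, *IL18* also without CRE replicate 2 and *NFKBIZ* without CRE replicate 1. These 3 genes and *IKBKE* were not called with an effective length offset (edgeR adjusted p from 0.0700 to 0.282) or by limma on TPM. At an unadjusted p under 0.05 (edgeR), 2 of the 13 regulators were lower and 3 higher, and 1 of the 5 atypical IκB genes was lower and 0 higher. Of all genes tested, 11.9% and 8.87% were, and 4.07% and 1.35% at the adjusted threshold. *RNF11*, a regulator named here after its value was seen, was called higher by edgeR without CRE replicate 3.

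**Figure D4:**
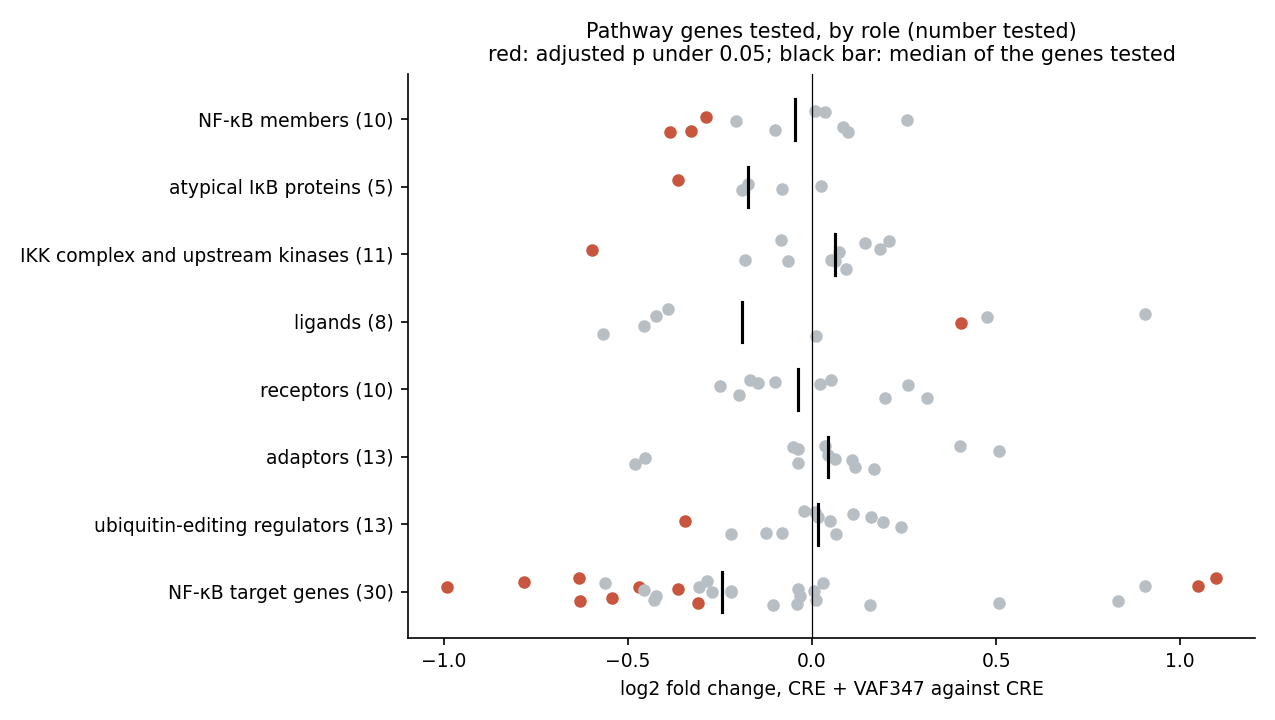
Fitted log2 fold change of the pathway genes tested, grouped by role, with the number tested in brackets. Red points have an adjusted p under 0.05 and black bars are medians; in the target genes the median is -0.24, with 8 red points below 0 and 2 above.

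Downstream, 30 of 41 listed NF-κB target genes could be tested, of which 8 fell and 2 rose (edgeR, adjusted p under 0.05), and 20 did not pass. Over all genes tested, 4.07% fell and 1.35% rose. The median log2 fold change of the 30 was -0.24, beside 0.0096 for all genes. The list was chosen with earlier results of these data known, so its calls and median describe the listed genes and are no independent test. DESeq2 called 6 lower and 2 higher, limma on TPM 2 and 2, and edgeR without CRE replicate 3 called 11 and 3, in a setting where the calls over all genes grew to 864 lower and 423 higher (5.54% and 2.71%). *LCN2*, which encodes an iron-binding antimicrobial protein, fell by 0.99 on the log2 scale, *ICAM1*, an adhesion molecule for leukocytes, by 0.78, *C3*, complement component 3, by 0.63, *TNFAIP2* by 0.63 and *ELF3*, an epithelial transcription factor, by 0.54. *SAA2*, an acute phase protein gene, fell by 0.47 with an edgeR adjusted p of 0.0495, and this call was lost in 12 of 16 other settings, among them DESeq2 (adjusted p = 0.104) and the removal of any library other than CRE replicate 3 (highest edgeR adjusted p = 0.197, smallest log2 fold change -0.33 without CRE replicate 2). Without CRE replicate 3 the log2 fold changes of *LCN2*, *ICAM1*, *C3*, *TNFAIP2*, *ELF3* and *SAA2* were -1.09, -0.67, -0.55, -0.58, -0.55 and -0.55. *SAA2* shares long stretches of sequence with *SAA1*, so its estimated count is less certain.

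The pair of targets that rose did so by more than any member fell. *IER3*, an early response gene that modulates NF-κB signalling and apoptosis, was at 27.4, 26.8 and 27.8 CPM with CRE and at 56.5, 58.5 and 60.6 CPM with CRE + VAF347. This was a log2 fold change of 1.10 ± 0.07 (SE, edgeR adjusted p = 9.10e-06). *IL6*, which encodes an inflammatory cytokine, was at 6.32, 5.99 and 4.39 CPM with CRE and at 9.89, 12.8 and 11.7 CPM with CRE + VAF347, which gave a log2 fold change of 1.05 ± 0.17 (SE, edgeR adjusted p = 0.00468). In both genes the groups did not overlap, and without CRE replicate 3 the log2 fold changes of *IER3* and *IL6* were 1.11 and 0.90. *IL6* had 47 to 122 counts per library. Its call was lost in 1 of 16 other settings, limma on log2(TPM + 1) with no filter (adjusted p = 0.0687). By RT-PCR, the paper reported that VAF347 reduced IL-6 and IL-1β in CRE-treated HBECs. For IL-6 this is the opposite direction, and the reason for the difference was not tested. *IL1B*, named here because of that report, had 12 to 21 counts per library. Its log2 fold change was 0.01, with a wide interval of -0.68 to 0.71 (edgeR adjusted p = 0.99).

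The genes whose CPM followed the called members most closely over the 6 libraries were found by Pearson's r of log2 CPM, given as a description because the points share their groups. For *NFKBIA* they were *INPP5J* (r = 0.9992), *CDC45* (0.9975) and *ANXA3* (0.9941). For *TNFAIP3* they were *TLE2* (0.9983), *MLXIPL* (0.9967) and *LOXL2* (0.9965), and for *BIRC3* they were *CALD1* (0.9957), *PCDHGA4* (0.9950) and *TCIM* (0.9934). All 9 had a negative log2 fold change, which follows from choosing genes that track members already called lower. *PCDHGA4* and *TCIM* were at low levels (1.78 and 0.934 CPM on average), so their likeness rests on few counts.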

How the data were processed

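The 6 HBEC RNA-seq libraries, 3 with CRE and 3 with CRE + VAF347, were assigned to groups from the labels, with 0 columns left unmatched. The authors prepared poly(A)-enriched libraries, sequenced them paired-end and deposited estimated counts (expected counts) per gene made with Salmon on hg38, per the submitters' processing notes. The authors also deposited TPM, whose total is 1000000 in each library. The Salmon version, the annotation and the use of strand are not given in the sources used here. The authors' own results table holds the mean normalized count, DESeq2 log2 fold change and p-value of each gene, and was not used. Of the count values, 9.29% were more than 0.01 from a whole number.

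Counts were rounded and fitted with edgeR 4.0.16 under R 4.3.3 (low counts filtered by filterByExpr, TMM, quasi-likelihood test, Benjamini-Hochberg adjustment over 15373 genes). Thresholds were an adjusted p of 0.05, with or without an absolute log2 fold change over 0.5. CPM are scaled by TMM. Groups of 3 allow no exact permutation p under 0.1, so genes rest on the model across all genes. Alternatives used DESeq2 1.42.0, limma 3.58.1 on log2(TPM + 1) or log2(TPM + 0.1) with a mean TPM of at least 1 or no filter, other filters and size factors, GC and effective length offsets, glmTreat, the replicate number as a block, and leaving out each library. The replicate numbers did not meet the rule for pairing, so the block was not part of the main design. The scripts were tested on simulated data. The depth of 8873160 to 10750283 counts per library sets 1 count at 0.0930 to 0.113 CPM.

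The members and gene lists were chosen with earlier results of these data known. Named genes are all members, the genes of each pathway list past the adjusted p of 0.05 (at most the 8 with the largest absolute log2 fold change), the 3 genes most like each called member, and *CYP1A1* and *CYP1B1*. Marker genes of the cell type check are named from their lists, and *IL1B* from the paper. A few other genes are marked as named after their values were seen. All 61228 gene names were found in GENCODE v44 on GRCh38, used for positions, overlaps and GC content. Promoter sequences are from RefSeq (GRCh38.p14).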

Additional observations from a re-analysis of the deposited data

How the results depend on the processing

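At any fold change, 833 genes were called by edgeR with all 6 libraries, 1586 with no filter on low counts, 303 with an effective length offset, 558 by DESeq2, 87 and 85 by limma on log2(TPM + 1) and log2(TPM + 0.1), 32 by limma with no filter, and 305 to 1287 when a library was left out, the lowest without CRE + VAF347 replicate 3 and the highest without CRE replicate 3. With a log2 fold change over 0.5 these counts were 340, 598, 221, 236, 84, 84, 32 and 201 to 380, and glmTreat called 47. The 833 calls were 626 lower and 207 higher, and the 87 of limma on log2(TPM + 1) were 53 and 34, its 32 without a filter 12 and 20, and the 47 of glmTreat 21 and 26. Of the 10 members, 3 were called at any fold in the main fit, 1 by DESeq2 (*NFKBIA*), 0 in each limma fit, 1 with the length offset (*BIRC3*), and 0 to 2 when a library was left out: 0 without CRE + VAF347 replicate 1, 2 or 3, 1 without CRE replicate 1, and 2 without CRE replicate 2 or 3. The cause of these differences was not tested. Over a fold of 0.5, 0 members became 1, *BIRC3*, with the GC offset and with the length offset, and stayed 0 when any library was left out.

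The fitted change of *NFKB2*, 0.0091, turned to -0.0011 in the 3 limma fits and lay between -0.032 (without CRE replicate 3) and 0.052 (without CRE replicate 2) when a library was left out, with -0.0018 without CRE + VAF347 replicate 2. That of *RELB*, 0.03, lay between -0.056 (without CRE replicate 1) and 0.084 (without CRE replicate 2). Neither gene was called in any setting, and the cause was not tested. The other 8 members kept their direction in all 16 settings. No scaling moved the median of all genes by over 0.1. With the GC offset the log2 fold changes of *NFKBIA*, *TNFAIP3* and *NFKBIE* were -0.28, -0.36 and -0.16. That of *IL18* was 0.31 (edgeR adjusted p = 0.0490). The medians and counts of the pathway lists were not computed with this offset.

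With the replicate number as a block, 2 members were called (*TNFAIP3* was lost, adjusted p = 0.0827), 726 genes at any fold and 319 over 0.5. Deviations of libraries with the same number correlated at 0.0706, 0.104 and 0.0462, so the numbers were not taken as pairs, although each library correlated best with its own number.

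Of the listed pathway genes, 11 of 41 targets, 4 of 14 receptors, 4 of 12 ligands, 1 of 14 adaptors and 1 of 14 ubiquitin-editing regulators had too few counts in both groups to be tested, so a fall or a small change in them was not detectable at this depth.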
